A study of Mus musculus with 16 samples.

Results

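The interaction of paternal and maternal ethanol exposure was measured in the cortex of mouse fetuses at gestational day 16. All 16 of the 16 libraries of the series entered it, as a 2 by 2 factorial of exposed fathers and exposed mothers. Per the labels, the 4 exposures were control (neither parent exposed), paternal EtOH, maternal EtOH and dual EtOH (both parents), each with 2 libraries from male and 2 from female fetuses. Total RNA of cortex was sequenced, so messenger RNA, unspliced transcripts and non-coding RNA were counted together. The sources used here do not give the strain, the ethanol dose, the timing of exposure or the litters. The labels do not say whether replicates are separate fetuses, so each p-value rests on the variation among the libraries at hand, part of which may be technical.

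The interaction is the dual minus paternal difference less the maternal minus control difference, on a log2 scale. It is 0 where the effects of the parents multiply, positive where dual exposure gave more RNA of a gene than the product of both single-parent effects, and negative where it gave less. Because control and dual libraries enter with the same sign, a positive value also arises where both single-parent groups lie below control and dual exposure does not add to that fall. Ethanol given to the mother reaches the fetus directly through the placenta, whereas exposure of the father before mating can act on the fetus only through sperm or through effects on the mother and the pregnancy. In the cortex of this stage, radial glia divide at the ventricle, intermediate progenitors multiply above them and newborn neurons migrate outward, while vessels, macrophages and the meninges grow around and into the tissue. Many transcripts in such neurons come from very long genes, and unspliced RNA and nuclear non-coding RNA are counted alongside mature messages when total RNA is sequenced.

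Male libraries held 15336566 to 19966696 counts and female libraries 26134287 to 35218456, so depth and sex cannot be told apart. Xist and the Y-linked genes placed every library with its labelled sex. No marker of the 15 cell type lists, those of cortical progenitors and neurons included, was at 0 in every library. Markers of meninges, vessels, blood, thalamus and choroid plexus were also counted, so the libraries held more than cortical neurons and glia. The female control replicates differed most from each other. Their median squared difference over genes, scaled by counting noise, was 6.10, against 1.55 to 2.37 in the other 7 groups and 0.455 for noise alone. Among males, 1.96% to 17.8% of counts fell on IDs that have no symbol, and among females 1.73% to 2.43%.

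Of 20140 genes tested, 348 had a positive and 60 a negative interaction at an adjusted p under 0.05 (edgeR's quasi-likelihood test with Benjamini-Hochberg adjustment). These 408 genes made up 2.03% of all genes tested, with 1.73% positive and 0.298% negative. The positive group consisted mainly of intronic, antisense and other non-coding genes. The negative group consisted mainly of protein-coding genes and included genes known from vessels, macrophages, connective tissue and blood. Positive interactions were larger, with a median of 1.97 over the 348 genes, against -0.70 over the 60 negative ones. The interaction had the same sign in males and in females for all 348 and all 60, although both sexes are part of the test that chose them. An unadjusted p under 0.05 was reached by 3601 genes, or 17.9% of those tested. DESeq2, run on the same design, called 842 positive and 195 negative.

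The number of genes called rested on single libraries. Leaving out any 1 of the 2 paternal, 2 maternal or 2 dual female libraries left 0 positive and 0 negative calls by edgeR's quasi-likelihood test, with 2706 to 3197 genes at an unadjusted p under 0.05. Without male control 1 there were 61 positive and 17 negative calls, without male control 2 there were 32 and 6, and without male paternal 1 there were 28 and 6. The counts were 106 and 18 without male maternal 1, and 52 and 14 without male maternal 2. They were 405 and 114 without male paternal 2, 447 and 49 without male dual 1, 887 and 158 without male dual 2, 1197 and 666 without female control 1, and 535 and 166 without female control 2. Without both dual females there were 0 calls in each direction (1431 at an unadjusted p under 0.05), and without both control females 1901 and 1417. Each of the 12 highest and 12 lowest named genes had the same sign after leaving out any 1 library, with the adjusted p reaching at most 0.0733 to 0.124. They were chosen on these same 16 libraries, as called genes with the same sign in both sexes.

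**Figure D1:**
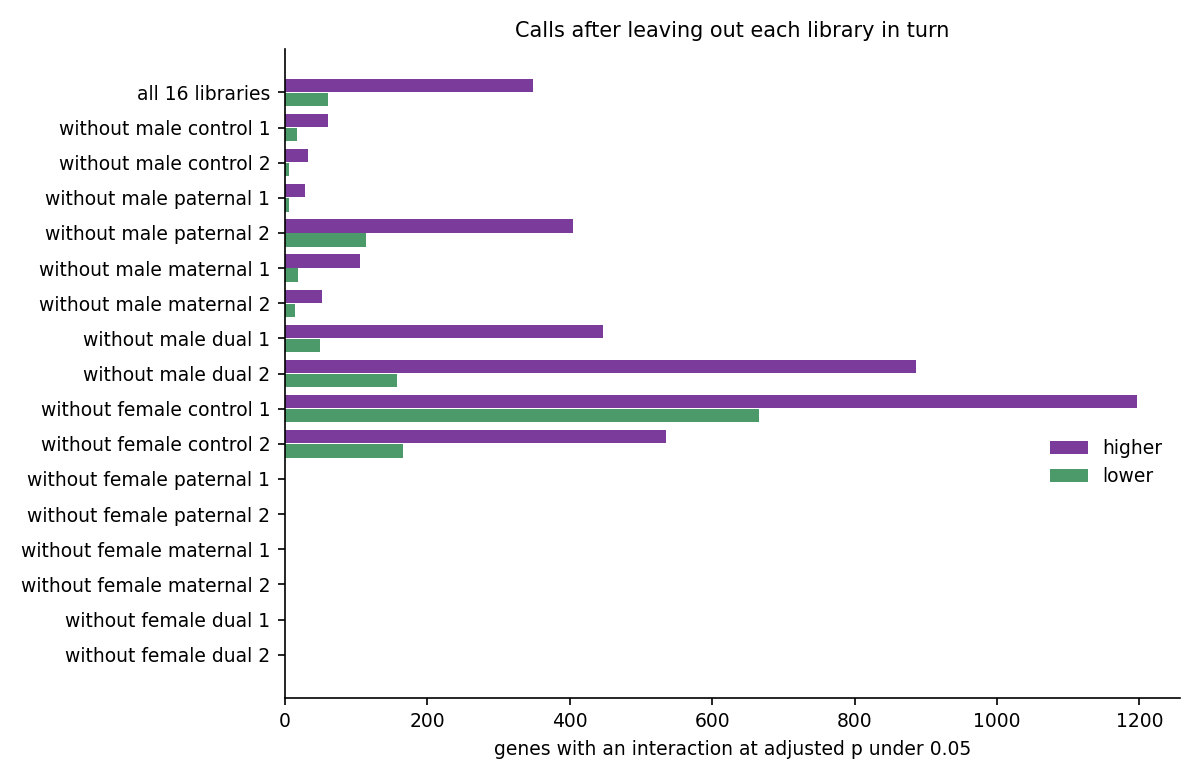
Number of genes with a positive (upper bar) or negative (lower bar) interaction at an adjusted p under 0.05, with all 16 libraries and after leaving out each library in turn (edgeR's quasi-likelihood test). The counts are 348 and 60 with all libraries and 0 after leaving out any of the 6 female libraries with an exposed parent.

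The positive side of the interaction was made up of RNA from introns, antisense transcripts and other non-coding genes. Of the 348 positive calls, 309 (88.8%) were not protein-coding, whereas 27.3% of the genes tested were not. Genes annotated as TEC, regions with signs of transcription whose transcripts still await experimental proof, gave 204 positive calls of 1651 tested, or 12.4%, with a median interaction of 1.23. Sense-intronic genes gave 19 of 200 (9.50%, median 1.14), antisense genes 38 of 1058 (3.59%, median 0.69), pseudogenes 24 of 1177 (2.04%, median 0.45) and lincRNA genes 17 of 655 (2.60%, median 0.26). Protein-coding genes gave 39 positive and 58 negative calls of 14637 (0.266% and 0.396%), and their median interaction was -0.05. The median over all genes tested was 0.00. When protein-coding genes were tested alone, edgeR's quasi-likelihood test called 0 in each direction, with 1802 at an unadjusted p under 0.05.

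**Figure D2:**
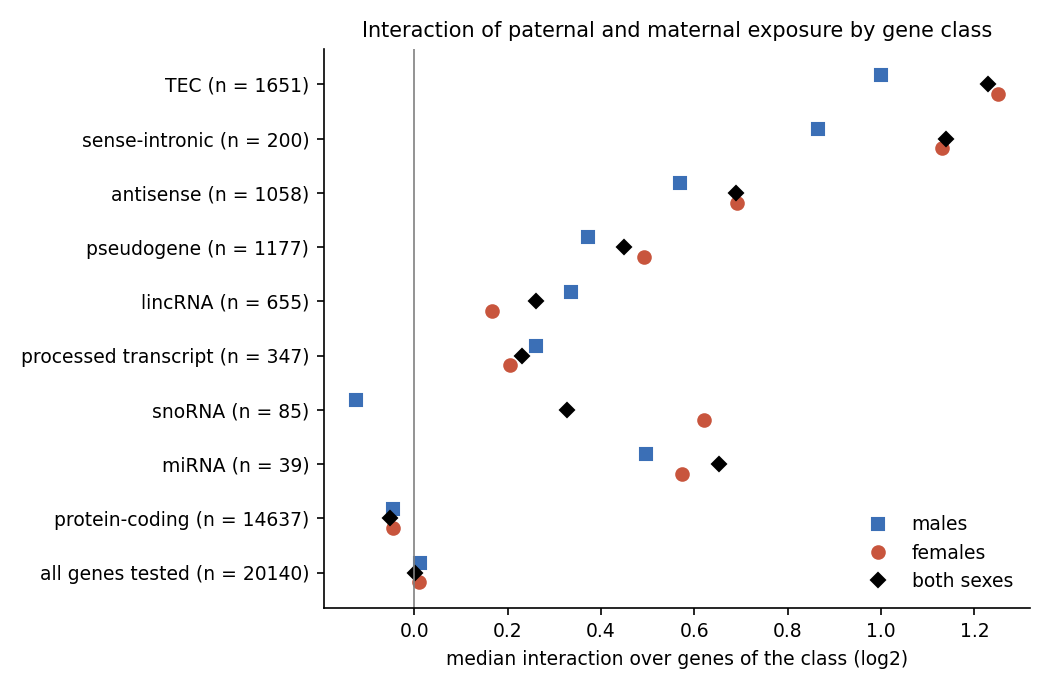
Median interaction (log2) over the genes of each annotated class in males (squares), females (circles) and both sexes (diamonds), with the number of genes tested. TEC and sense-intronic genes lie at 1.23 and 1.14, protein-coding genes at -0.05.

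In the individual libraries, TEC and sense-intronic genes took 0.429% and 0.534% of the counts in control males, 0.280% and 0.381% in paternal males, 0.369% and 0.363% in maternal males, and 0.511% and 0.365% in dual males. In females the shares were 0.325% and 0.349% for control, 0.331% and 0.352% for paternal, 0.391% and 0.374% for maternal and 0.872% and 0.860% for dual. Both dual females stood above every other library, whereas in males the control and dual libraries overlapped and only 1 dual male exceeded all 4 males with 1 exposed parent. The interaction of the log2 share was 0.79 in males and 1.16 in females (exact permutation test within each sex, two-sided p = 0.0857 and 0.400). Over both sexes it was 0.98 (exact permutation test of control and dual against paternal and maternal libraries within sex, two-sided p = 0.0339, adjusted p = 0.0974 over 23 library measures; the smallest p the design allows is 0.000408). With this share as a covariate, edgeR's quasi-likelihood test called 0 genes in each direction, with 1196 at an unadjusted p under 0.05. The fitted values of the 12 named negative genes were then 0.906 to 1.20 times those without it (median -1.22 against -1.21), and 12 of 12 had an unadjusted p under 0.05. Those of the 12 named positive genes were 0.0646 to 0.719 times as large (median 0.58 against 1.18), and 6 of 12 had an unadjusted p under 0.05. Both sets were chosen by their values in these same libraries. The covariate is the count share of classes that gave 223 of the 348 positive calls, so it is not independent of the interaction.

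The intronic genes were compared with the genes that contain them, without a test. Of 1851 TEC and sense-intronic genes tested, 1294 (69.9%) lay within an intron of a protein-coding gene on the same strand. For the 1277 whose host was also tested, the median interaction was 1.41, while the median over their 731 distinct hosts was 0.00. Among the 731 hosts, 9 were called positive and 2 negative, against 0.266% and 0.396% of all protein-coding genes tested. For the 184 called intronic genes with a tested host, which were chosen by this interaction, the 105 hosts ranged from -0.23 to 0.75. Of these 105 hosts, 6 were called positive and 0 negative. These positions are from GENCODE M21. As each intronic gene lies on the strand of its host, its reads and those of the unspliced host transcript cannot be told apart.

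**Figure D3:**
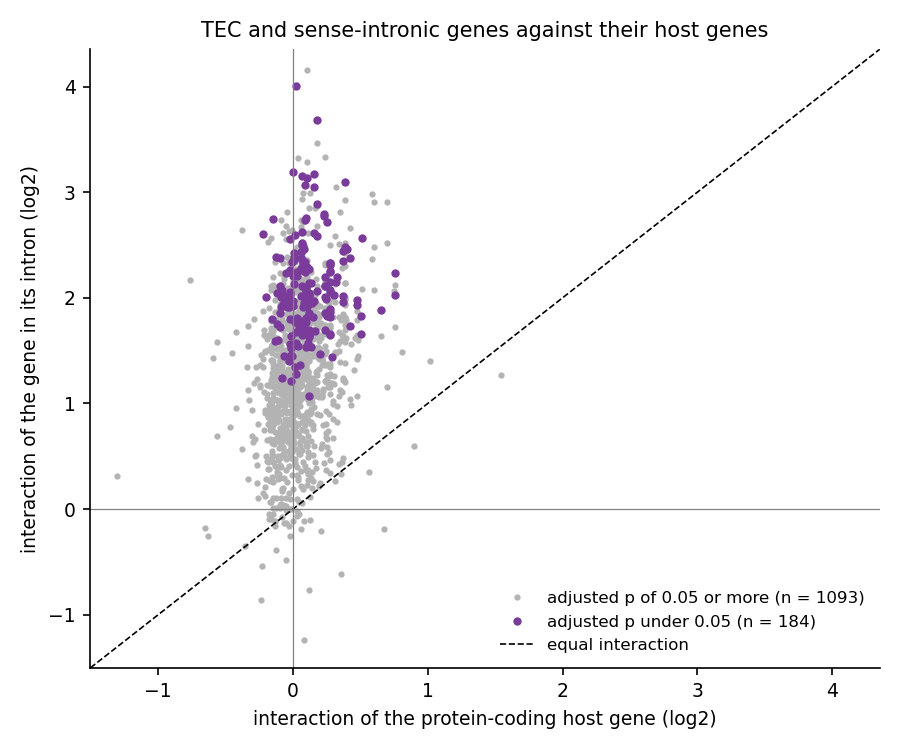
Interaction (log2) of each TEC or sense-intronic gene against that of the protein-coding gene whose intron holds it, for 1277 genes. The 1277 genes have a median of 1.41 and their 731 distinct hosts one of 0.00. The 184 genes marked for an adjusted p under 0.05 were chosen by the value on the vertical axis, and the dashed line marks equal interaction.

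Gm42946, a TEC gene within an intron of Negr1, shows the pattern by library. Gm42946 measured 3.24 and 7.21 CPM in the control males, 2.5 and 3.56 in the control females, 6.28 and 5.21 in the dual males and 11.1 and 10.3 in the dual females. In libraries with 1 exposed parent it read 1.94 and 2.93 in the paternal males, 2.03 and 2.2 in the paternal females, 2.5 and 2.51 in the maternal males and 2.06 and 2.69 in the maternal females. All 4 dual and 3 of 4 control libraries stood above all 8 single-parent libraries. Its interaction was 2.62 ± 0.42 (SE), adjusted p = 0.0221, edgeR's quasi-likelihood test, a ratio 6.13 times that of multiplying effects. Negr1 itself, which encodes a neuronal cell adhesion protein, read 188 ± 12.1 CPM (SD, n = 4) in control, 177 ± 12.3 in paternal, 182 ± 7.29 in maternal and 191 ± 14.4 in dual libraries, and its interaction was 0.15 ± 0.09 (SE) with an adjusted p of 0.411. Gm42943, another TEC gene in a Negr1 intron, had an interaction of 3.17 ± 0.66 (SE), adjusted p = 0.0285. Both were chosen as examples after their values were seen.

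Svet1 is a transcript of the subventricular zone that lies in an intron of Unc5d, the gene of a netrin receptor that guides migrating neurons. Svet1 measured 5.05 and 7.5 CPM in the control males, 4.12 and 3.58 in the control females, 8.78 and 4.91 in the dual males and 21.4 and 13.9 in the dual females. Single-parent libraries read 2.98 and 4.85 in the paternal males, 3.78 and 4.18 in the paternal females, 3.29 and 4.29 in the maternal males and 4.12 and 3.77 in the maternal females. The dual females were the highest of the 16, and the second dual male (4.91 CPM) barely exceeded the highest single-parent library (4.85 CPM). The interaction of Svet1 was 2.01 ± 0.44 (SE), adjusted p = 0.0314, with 1.51 in males and 2.12 in females. Unc5d read 124 ± 10.2 CPM (SD, n = 4) in control, 137 ± 10.6 in paternal, 127 ± 10.1 in maternal and 132 ± 12.4 in dual libraries, with an interaction of -0.09 ± 0.11 (SE) and an adjusted p of 0.730.

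Among called genes with an established symbol and a mean log2 CPM of at least 1, Lrtm1 had the highest interaction. Lrtm1 encodes a leucine-rich repeat membrane protein and lies on the opposite strand within an intron of Cacna2d3, a calcium channel subunit gene. Lrtm1 measured 2.24 and 4.79 CPM in the control males, 1.66 and 2.49 in the control females, 4.04 and 3.53 in the dual males and 4.64 and 5.33 in the dual females. The single-parent libraries measured 1.56 and 1.52 in the paternal males, 1.56 and 1.54 in the paternal females, 1.71 and 1.97 in the maternal males and 1.38 and 1.66 in the maternal females. All 4 dual libraries were above all 8 single-parent libraries, as were 3 of 4 controls. The interaction was 2.22 ± 0.38 (SE), adjusted p = 0.0221, edgeR's quasi-likelihood test, or 4.65 times the product of the single-parent effects, and it was 2.21 in males and 2.12 in females. Against the same control libraries, the fitted differences were -0.80 for paternal, -0.70 for maternal and 0.71 for dual exposure. Cacna2d3 had an interaction of 0.17 ± 0.13 (SE) (adjusted p = 0.545).

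D10Wsu102e, a protein-coding gene that overlaps an exon of Aldh1l2 on the other strand, had the highest CPM of the 12 named positive genes. D10Wsu102e stood at 308 and 371 CPM in the control males, 286 and 295 in the control females, 396 and 328 in the dual males and 473 and 479.7 in the dual females. Values with 1 exposed parent were 207 and 279.5 in the paternal males, 234 and 221 in the paternal females, 306 and 265 in the maternal males and 304 and 326 in the maternal females. All 4 dual libraries lay above all 8 single-parent libraries, the lowest at 328 against 326 CPM. The interaction was 0.90 ± 0.16 (SE), adjusted p = 0.0221, with fitted differences from control of -0.42 for paternal, -0.07 for maternal and 0.41 for dual exposure. Aldh1l2 showed an interaction of 0.03 (adjusted p = 0.867).

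Further named positive genes included genes of cilia and muscle and antisense RNAs. Cfap44, a component of motile cilia, read 5.69 ± 3.14 CPM (SD, n = 4) in control, 2.81 ± 0.310 in paternal, 2.93 ± 0.369 in maternal and 5.69 ± 2.67 in dual libraries, and its interaction was 1.98 ± 0.48 (SE), adjusted p = 0.0408. Dnah17, an axonemal dynein heavy chain, read 5.66 ± 1.24 CPM (SD, n = 4) in control, 4.69 ± 0.418 in paternal, 4.67 ± 1.34 in maternal and 8.27 ± 1.69 in dual libraries, with an interaction of 1.09 ± 0.27 (SE), adjusted p = 0.0445. For Dnah17 all 4 dual libraries were above all 8 single-parent libraries, and for Cfap44 3 of 4 were, while its controls spread from 2.32 to 9.81 CPM. Ttn, the giant sarcomere protein titin, read 12.3 ± 2.03 CPM (SD, n = 4) in control, 8.76 ± 1.68 in paternal, 10.3 ± 1.41 in maternal and 14.3 ± 1.91 in dual libraries, and its interaction was 0.96 ± 0.20 (SE), adjusted p = 0.0285. Slain1os, antisense to Slain1, read 3.5 ± 0.703 CPM (SD, n = 4) in control, 2.98 ± 0.708 in paternal, 3.12 ± 0.316 in maternal and 6.36 ± 0.670 in dual libraries, with an interaction of 1.28 ± 0.27 (SE), adjusted p = 0.0298. For Ttn and Slain1os all 4 dual libraries were above all 8 single-parent libraries. Srrm4os, antisense to the neuronal splicing regulator Srrm4, had 1.08 ± 0.26 (SE), adjusted p = 0.0408, and Nron, a non-coding repressor of NFAT nuclear entry that lies opposite an intron of Mvb12b, had 1.68 ± 0.41 (SE), adjusted p = 0.0418. Slain1, Srrm4 and Mvb12b had interactions of -0.04, 0.13 and -0.06, with adjusted p-values of 0.851, 0.456 and 0.802. Reads of antisense and sense partners could not be separated without a stated strand setting.

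**Figure D4:**
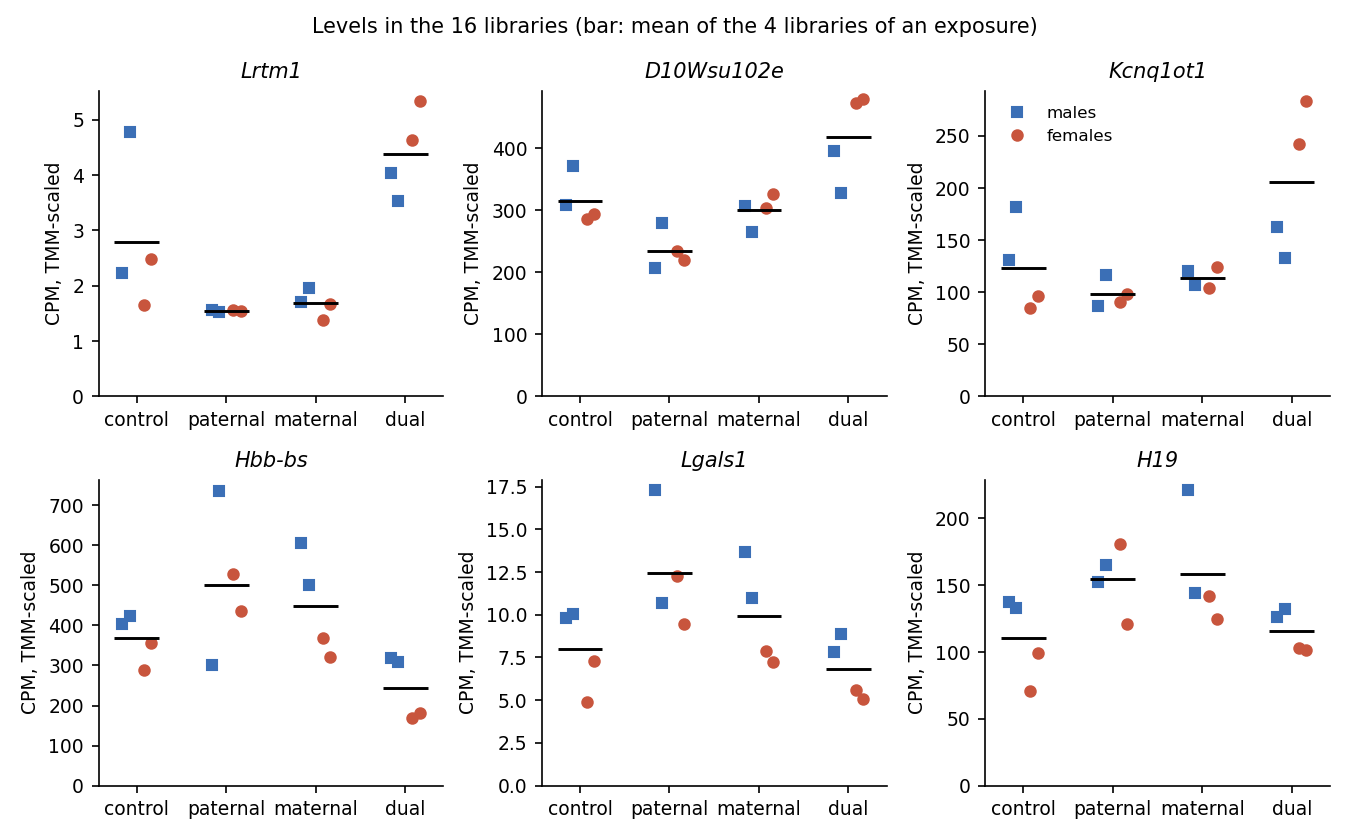
Levels (CPM, TMM-scaled) of 6 named genes in the 16 libraries by exposure, for males (squares) and females (circles), with a bar at the mean of the 4 libraries of an exposure. Lrtm1, D10Wsu102e and Kcnq1ot1 have their highest mean in dual libraries, and Hbb-bs, Lgals1 and H19 are lower in dual and control than in paternal and maternal means.

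Clustered protocadherins are cell surface proteins that give neurons individual identities. Of 48 tested, 4 were called positive and 0 negative, against 1.73% and 0.298% of all genes tested. The protocadherin median was 0.25 beside 0.00 over all genes, and 42 of the 48 lay above 0. Pcdhgb5 measured 15.3 and 20.3 CPM in the control males, 17.9 and 17.6 in the control females, 15.8 and 15.9 in the dual males and 28.1 and 24.3 in the dual females. For the single-parent groups the values were 13.2 and 12.7 in the paternal males, 14.1 and 14.9 in the paternal females, 11.9 and 12.5 in the maternal males and 14.2 and 15.1 in the maternal females. All 4 dual and all 4 control libraries stood above all 8 single-parent libraries, so both ends of the factorial were high. Its interaction was 1.02 ± 0.18 (SE), adjusted p = 0.0221. Pcdhgb4 (0.89 ± 0.19, SE), Pcdhgb7 (0.59 ± 0.15) and Pcdhga7 (0.57 ± 0.14) also passed, with adjusted p-values of 0.0298, 0.0422 and 0.0418. The gamma genes share their constant exons, so how reads were divided among them is uncertain.

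Nrxn3, a presynaptic neurexin, was called positive among 26 synapse genes, of which 20 lay above 0 (median 0.11). The median of these 26 genes was 0.27 in males and -0.00073 in females. Of all 14637 protein-coding genes tested, 5752 lay above 0 and 0.266% were called positive. Nrxn3 measured 232 and 249.7 CPM in the control males, 216 and 229 in the control females, 249 and 224 in the dual males and 268 and 279 in the dual females. Paternal and maternal libraries measured 177 and 206 in the paternal males, 214 and 198 in the paternal females, 208 and 212 in the maternal males and 221 and 199 in the maternal females. The 4 dual libraries were above all 8 single-parent libraries, and 3 of 4 controls were too. The interaction was 0.50 ± 0.10 (SE), adjusted p = 0.0253, and it was 0.50 in males and 0.49 in females. The postsynaptic scaffold Shank2 (0.29, adjusted p = 0.127) and the AMPA receptor subunit Gria4 (0.29, adjusted p = 0.185) did not pass. Kmt2a, a histone H3K4 methyltransferase, was the 1 of 25 genes of DNA and H3K4 methylation to pass, at 0.30 ± 0.07 (SE), adjusted p = 0.0399. It read 470.5 ± 18 CPM (SD, n = 4) in control, 415 ± 25.3 in paternal, 457 ± 20.1 in maternal and 498 ± 18.4 in dual libraries. Its relatives Kmt2d (0.28, adjusted p = 0.0682) and Kmt2c (0.21, adjusted p = 0.139) missed the threshold, and the median over the 25 was 0.01.

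Nuclear long non-coding RNAs were above 0 in 11 of 11, with a median interaction of 0.67, 2 called positive and 0 negative. Over all 20140 genes tested, 10157 were above 0 and 1.73% were called positive. With the share of TEC and sense-intronic counts as a covariate that median was 0.012, and the values of Malat1 and Rian took the other sign (-0.23 and -0.086). The interaction with this covariate was 0.076 for Kcnq1ot1 and 0.49 for Rmst (edgeR's quasi-likelihood test, unadjusted p = 0.583 and 0.0818). Kcnq1ot1 is the paternally expressed antisense RNA that silences its imprinted neighbours. Kcnq1ot1 read 131 and 182 CPM in the control males, 84.8 and 96.5 in the control females, 163 and 133 in the dual males and 242 and 284 in the dual females. It read 87.1 and 117 in the paternal males, 90.2 and 97.8 in the paternal females, 121 and 107 in the maternal males and 104 and 124 in the maternal females. All 4 dual libraries exceeded all 8 single-parent libraries, the 2 control males also did, and the 2 control females did not. The interaction was 1.18 ± 0.30 (SE), adjusted p = 0.0444, and that of Kcnq1, which it overlaps, was 0.01 (adjusted p = 0.996). Rmst, a neuronal lincRNA that binds Sox2, read 12.8 ± 2.85 CPM (SD, n = 4) in control, 8.73 ± 0.820 in paternal, 10.4 ± 2.49 in maternal and 15.8 ± 4.52 in dual libraries, with an interaction of 1.17 ± 0.27 (SE), adjusted p = 0.0348. Meg3, the maternally expressed RNA of the Dlk1-Dio3 domain, read 668 ± 218 CPM (SD, n = 4) in control, 451 ± 96.3 in paternal, 499 ± 59.4 in maternal and 741 ± 258 in dual libraries, and its interaction of 1.14 ± 0.32 (SE) had an adjusted p of 0.0644. Neat1, the scaffold of paraspeckles, had 0.93 ± 0.32 (adjusted p = 0.131), and Malat1, an abundant RNA of nuclear speckles, had 0.57 ± 0.23 (adjusted p = 0.193).

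The Dlk1-Dio3 domain on chromosome 12 also held the microRNA gene that passed the test. Of 39 microRNA genes tested, 28 lay above 0 (median 0.65), 4 had an unadjusted p under 0.05 and 1, Mir341, passed. That is 2.56% called positive, near the 1.73% of all genes tested. Of all 20140 genes tested, 10157 lay above 0 and 17.9% had an unadjusted p under 0.05. Matching by symbol found 33 of the 39 in RefSeq. The mature products of Mir341 and of its neighbour Mir1188 are shown because these genes had the smallest p-values of the class. They are from RefSeq on GRCm38.p6, 5′ to 3′, with the seed (bases 2 to 8) in capitals.
miR-341-5p: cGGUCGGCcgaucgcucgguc
miR-341-3p: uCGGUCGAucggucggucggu
miR-1188-5p: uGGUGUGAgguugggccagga
miR-1188-3p: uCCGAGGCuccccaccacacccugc
The 4 seeds differ from each other. On that build the 5′ arm of Mir341 lies at chr12:109611521-109611541 and that of Mir1188 at chr12:109611841-109611861, both on the plus strand.

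Mir341 measured 1.29 and 0.981 CPM in the control males, 0.662 and 0.925 in the control females, 1.73 and 0.307 in the dual males and 1.63 and 2.04 in the dual females. The gene read 0.372 and 0.169 in the paternal males, 0.465 and 0.682 in the paternal females, 0.549 and 0.597 in the maternal males and 0.411 and 0.584 in the maternal females. Levels were near or under 2 CPM throughout, 3 of 4 dual and 3 of 4 control libraries exceeded all 8 single-parent libraries, and the second dual male was low. The interaction of Mir341 was 2.58 ± 0.64 (SE), adjusted p = 0.0429, edgeR's quasi-likelihood test. Mir1188 had 1.99 ± 0.55 (SE) and an adjusted p of 0.0631. Total RNA libraries count little mature microRNA, so reads on these genes cannot be told apart from reads of the long transcript that contains them. The long RNAs Rian and Mirg of the same domain showed smaller values: Rian, a host of small nucleolar RNAs, had 0.35 ± 0.16 (adjusted p = 0.247) and Mirg, a host of microRNAs, had 0.37 ± 0.21 (adjusted p = 0.367).

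The negative side of the interaction was made up of protein-coding genes, 58 of 60 calls, with the lincRNA genes H19 and Gm10076 (-0.65 ± 0.16, SE, adjusted p = 0.0407, chosen after its value was seen) as the others. By edgeR's quasi-likelihood test, 0 passed when protein-coding genes were tested alone, with 832 negative at an unadjusted p under 0.05. Many of the genes named here are known from vessels, macrophages and connective tissue. In bulk tissue, fewer cells of a type and less RNA per cell cannot be told apart. Endothelial and pericyte genes were negative in 15 of 16, with a median of -0.55 and 4 called negative. Over all genes tested, 0.298% were called negative, and 8885 of 14637 protein-coding genes lay below 0. Pecam1, an adhesion molecule of endothelial junctions, read 23.9 ± 2.82 CPM (SD, n = 4) in control, 25.7 ± 1.22 in paternal, 26.4 ± 0.382 in maternal and 18.3 ± 2.71 in dual libraries, with an interaction of -0.65 ± 0.14 (SE), adjusted p = 0.0298. Cdh5, the endothelial cadherin, measured 53.8 and 47.3 CPM in the control males, 30.5 and 51.8 in the control females, 45.5 and 46.5 in the dual males and 35.2 and 33.2 in the dual females. Its single-parent values were 57.9 and 54.1 in the paternal males, 58.8 and 51.6 in the paternal females, 70.8 and 54.2 in the maternal males and 49.1 and 49.2 in the maternal females. All 4 dual libraries lay below all 8 single-parent libraries, and the first female control was lower still. Cdh5 had an interaction of -0.78 ± 0.18 (SE), adjusted p = 0.0331, edgeR's quasi-likelihood test. Tek, the angiopoietin receptor (-0.71, adjusted p = 0.0495), and Esam, an endothelial adhesion molecule (-0.65, adjusted p = 0.0469), passed as well.

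Slc2a1, the glucose transporter of brain endothelium and a member of the glycolysis and hypoxia list, read 59.9 ± 3.88 CPM (SD, n = 4) in control, 64.6 ± 6.77 in paternal, 66.6 ± 6.8 in maternal and 50.5 ± 3.18 in dual libraries. All 4 dual libraries lay below all 8 single-parent libraries, and its interaction was -0.51 ± 0.12 (SE), adjusted p = 0.0331. It was the 1 of 22 glycolysis and hypoxia genes to pass (median -0.17, 20 below 0), followed by Egln3, an oxygen-sensing hydroxylase, at -0.52 (adjusted p = 0.0855). Of all 14637 protein-coding genes tested, 0.396% were called negative and 8885 lay below 0. Gimap6, a GTPase of lymphocytes and endothelium, read 3.16 ± 0.361 CPM (SD, n = 4) in control, 4.06 ± 0.714 in paternal, 4.27 ± 0.860 in maternal and 2.53 ± 0.326 in dual libraries, with -1.10 ± 0.26 (SE), adjusted p = 0.0408. Plau, the urokinase plasminogen activator, had -1.81 ± 0.38 (SE), adjusted p = 0.0284, at levels between 0.654 and 2.53 CPM, and was named after its values were seen.

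Of 14 microglia and macrophage markers, 1 was called negative, against 0.298% of all genes tested. The called marker was Mrc1, and 11 of the 14 were below 0 (median -0.52). Mrc1, the mannose receptor of border macrophages, had the lowest interaction of the 12 named negative genes. Mrc1 measured 32.7 and 25.4 CPM in the control males, 4.49 and 18.6 in the control females, 17.8 and 21.4 in the dual males and 13.4 and 14.8 in the dual females. Libraries with 1 exposed parent measured 48.3 and 32.5 in the paternal males, 39.1 and 29.3 in the paternal females, 22.4 and 33 in the maternal males and 25.1 and 23.1 in the maternal females. The 4 dual libraries were below all 8 single-parent libraries, and the control values were split, with both males inside and both females below the single-parent range. Its interaction was -1.64 ± 0.41 (SE), adjusted p = 0.0454, -0.97 in males and -2.34 in females. Stab1, a scavenger receptor of macrophages and sinusoidal endothelium, read 35.2 ± 10.6 CPM (SD, n = 4) in control, 46.1 ± 4.84 in paternal, 37.6 ± 4.52 in maternal and 24.8 ± 3.78 in dual libraries, with -1.04 ± 0.22 (SE), adjusted p = 0.0298. Adgre1, which encodes the macrophage antigen F4/80, read 3.73 ± 0.619 CPM (SD, n = 4) in control, 5.71 ± 0.867 in paternal, 3.94 ± 0.411 in maternal and 2.85 ± 0.180 in dual libraries, with -1.08 ± 0.24 (SE), adjusted p = 0.0314. Colec12, a scavenger receptor of vessels and macrophages, had -1.43 ± 0.36 (SE), adjusted p = 0.0453, and Il13ra1, a subunit of the interleukin-13 receptor, had -1.0 ± 0.21 (SE), adjusted p = 0.0266. Stab1, Adgre1, Colec12 and Il13ra1 are among the 12 lowest called values and are not in the marker list. Of the markers, C1qb, a complement subunit (-0.80, adjusted p = 0.0781), and Fcer1g, the Fc receptor gamma chain (-1.45, adjusted p = 0.0941), did not pass.

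Genes of meninges and connective tissue had the lowest list median, -1.09, with 14 of 14 below 0 and 0 called by edgeR's quasi-likelihood test, although 12 had an unadjusted p under 0.05. Foxc1, a transcription factor of meningeal fibroblasts (-0.92 ± 0.24 (SE), adjusted p = 0.0542), Col3a1, a fibrillar collagen (-1.36 ± 0.39 (SE), adjusted p = 0.0682), and Aldh1a2, the retinaldehyde dehydrogenase of the meninges (-1.76 ± 0.53 (SE), adjusted p = 0.0808), came nearest. The summed CPM of the list was 601 and 617 in control males, 539.8 and 689 in paternal males, 633 and 749.7 in maternal males and 420.4 and 478 in dual males. In females it was 127 and 509 for control, 535 and 713 for paternal, 466 and 506 for maternal, and 304.5 and 305.1 for dual libraries. The lowest value belonged to the first control female. Without it the list median was -0.76, and without the second it was -1.41.

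Called genes that fibroblasts and vessel walls express in many tissues were negative too. Lgals1, the galactose-binding lectin galectin-1, measured 9.81 and 10 CPM in the control males, 4.91 and 7.31 in the control females, 7.81 and 8.89 in the dual males and 5.59 and 5.05 in the dual females. In the single-parent groups it measured 17.3 and 10.7 in the paternal males, 12.2 and 9.44 in the paternal females, 13.7 and 11 in the maternal males and 7.88 and 7.24 in the maternal females. Within each sex both dual libraries lay below all 4 single-parent libraries, although males and females overlapped. The interaction was -1.20 ± 0.22 (SE), adjusted p = 0.0221. Sparc, a matrix protein that binds collagen, read 142 ± 23.9 CPM (SD, n = 4) in control, 171 ± 23.5 in paternal, 161 ± 12.6 in maternal and 118 ± 13.8 in dual libraries, with -0.73 ± 0.15 (SE), adjusted p = 0.0266. Olfml2a, an extracellular matrix protein, had -1.28 ± 0.30 (SE), adjusted p = 0.0399, and Cped1, a cadherin-like protein, had -1.22 ± 0.30 (SE), adjusted p = 0.0441. The part of meningeal, vascular and macrophage markers in these results was not tested.

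Globin genes, transcribed in red cell precursors, had values below 0, and 1 of the 4 described here passed. Hbb-bs, an adult beta globin, measured 403 and 424 CPM in the control males, 288 and 355 in the control females, 319 and 308 in the dual males and 169.8 and 182 in the dual females. With 1 exposed parent the range was wide, at 302 and 735 in the paternal males, 529 and 435 in the paternal females, 606 and 501 in the maternal males and 369 and 322 in the maternal females. Both dual females were below every other library, while the dual males overlapped the first paternal male. The interaction was -1.36 ± 0.26 (SE), adjusted p = 0.0234, edgeR's quasi-likelihood test. Hbb-bt (-0.95 ± 0.27 (SE), adjusted p = 0.0678), Hba-a1 (-0.82 ± 0.25 (SE), adjusted p = 0.0886) and Hba-a2 (-0.72 ± 0.30 (SE), adjusted p = 0.201) were also negative without passing. Near-identical coding sequences make the division of reads within each globin pair uncertain. Over the 9 red cell genes tested, 7 were below 0 and the median was -0.72. The 1 called negative compares with 0.298% of all genes tested.

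The promoters of these 4 globin genes are shown because the genes are transcribed in the same cells and had negative values together. Each is the 110 bases before the start in RefSeq on GRCm38.p6, 5′ to 3′ on the gene's strand, with 3 motifs searched on both strands in capitals. They are the CCAAT box of many promoters, the TATAA motif near the start of transcription, and CACCC, the core of the element that the erythroid factor Klf1 binds.
Hbb-bs: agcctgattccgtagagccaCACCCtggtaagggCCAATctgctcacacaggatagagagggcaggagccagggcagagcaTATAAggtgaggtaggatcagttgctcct
Hbb-bt: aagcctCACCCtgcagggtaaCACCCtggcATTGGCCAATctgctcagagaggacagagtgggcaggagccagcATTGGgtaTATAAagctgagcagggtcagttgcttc
Hba-a1: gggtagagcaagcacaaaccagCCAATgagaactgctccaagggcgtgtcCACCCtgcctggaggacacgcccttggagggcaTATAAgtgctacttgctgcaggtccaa
Hba-a2: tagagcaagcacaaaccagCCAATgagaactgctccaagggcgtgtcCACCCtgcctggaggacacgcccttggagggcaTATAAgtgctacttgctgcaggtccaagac
All 4 held the 3 motifs, which occurred together in 0.554% of 32851 promoter windows of this length. CCAAT was found in 20.2% of windows, TATAA in 10.9% and CACCC in 29.6%. In Hbb-bt a CCAAT match on the other strand reads ATTGG and adjoins the one on the gene's strand. A match describes the letters only.

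Among genes of the insulin-like growth factor axis, H19 passed and Igf2 and Igf2r had values below 0 without passing. H19, the imprinted non-coding RNA beside Igf2, measured 138 and 133 CPM in the control males, 71.1 and 99.6 in the control females, 126 and 132 in the dual males and 103 and 101.8 in the dual females. It measured 152 and 165 in the paternal males, 181 and 121 in the paternal females, 221 and 144 in the maternal males and 142 and 125 in the maternal females. Within each sex both control and both dual libraries were below all 4 single-parent libraries. The interaction of H19 was -0.97 ± 0.20 (SE), adjusted p = 0.0266, edgeR's quasi-likelihood test, with fitted differences from control of 0.53 for paternal, 0.53 for maternal and 0.09 for dual exposure. Igf2, the fetal growth factor, read 12.1 ± 4.94 CPM (SD, n = 4) in control, 18.4 ± 3.6 in paternal, 19 ± 4.3 in maternal and 14.1 ± 0.841 in dual libraries, and its interaction of -1.05 ± 0.33 (SE) did not pass (adjusted p = 0.0984). Igf2r, the receptor that removes Igf2, had -0.07 (adjusted p = 0.727).

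Of 6 Igfbp genes tested, which encode binding proteins of these growth factors, 3 were called negative, against 0.298% of all genes. Igfbp5 (-0.09), Igfbp6 (-0.49) and Igfbp7 (-0.30) did not pass. Igfbp2 measured 75.7 and 65.4 CPM in the control males, 67.1 and 77.9 in the control females, 58.1 and 66.4 in the dual males and 64.4 and 63.9 in the dual females. In paternal and maternal libraries the values were 92.8 and 77.1 in the paternal males, 86.6 and 80.9 in the paternal females, 81.5 and 79.6 in the maternal males and 75.7 and 78.5 in the maternal females. The 4 dual libraries lay below all 8 single-parent libraries, as did 2 of 4 controls. Its interaction was -0.55 ± 0.10 (SE), adjusted p = 0.0221. Igfbp4 had -0.59 ± 0.12 (SE), adjusted p = 0.0265, and Igfbp3 had -0.52 ± 0.13 (SE), adjusted p = 0.0457. Shc1, an adaptor that couples growth factor receptors to Ras, had -0.82 ± 0.14 (SE), adjusted p = 0.0221, and read 13.7 ± 1.9 CPM (SD, n = 4) in control, 17.7 ± 1.65 in paternal, 16.1 ± 1.66 in maternal and 11.8 ± 1.23 in dual libraries. Shc1 and the Igfbp genes were chosen after values were seen.

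Imprinted genes went in both directions. Slc38a4, an imprinted amino acid transporter of the placenta, measured 4.67 and 5.6 CPM in the control males, 2.38 and 4.16 in the control females, 4.16 and 4.22 in the dual males and 3.53 and 4.33 in the dual females. Single-parent libraries stood at 11.5 and 5.75 in the paternal males, 8.38 and 5.76 in the paternal females, 7.26 and 8.71 in the maternal males and 4.94 and 4.79 in the maternal females. All 4 dual and 3 of 4 control libraries were below all 8 single-parent libraries. The interaction was -1.53 ± 0.31 (SE), adjusted p = 0.0266, -1.66 in males and -1.42 in females. Mest, a paternally expressed hydrolase, had 0.40 ± 0.10 (SE), adjusted p = 0.0443, and Copg2, which overlaps Mest on the other strand, had 0.40 ± 0.08 (SE), adjusted p = 0.0221, so reads of the 2 genes cannot be told apart without the strand setting. Over 21 imprinted protein-coding genes 1 was called positive and 1 negative, and the median was -0.01. Of all 14637 protein-coding genes tested, 0.266% were called positive and 0.396% negative, with a median of -0.05.

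Ribosomal protein genes lay slightly below 0 as a group. Over all 14637 protein-coding genes tested, 8885 were below 0 and 0.396% were called negative. Of 79 cytoplasmic ribosomal proteins 78 were negative, with a median of -0.24, and 2 were called: Rps21 (-0.44 ± 0.10 (SE), adjusted p = 0.0358) and Rpl10a (-0.35 ± 0.09 (SE), adjusted p = 0.0466). Rplp1, a stalk protein, missed the threshold (-0.38, adjusted p = 0.0504). The median was -0.03 with the share of TEC and sense-intronic counts as a covariate. Of 75 nuclear-encoded subunits of oxidative phosphorylation, 65 were negative (median -0.15) and 0 were called, with 22 at an unadjusted p under 0.05. The median of these subunits was -0.0053 with the same covariate, and it was -0.29 in males and -0.04 in females without it. Cox7a2l, an assembly factor of respiratory supercomplexes, had -0.36 (adjusted p = 0.107) and Atp5g2, a subunit of ATP synthase, had -0.41 (adjusted p = 0.110). Srsf2, a splicing factor, was the 1 of 30 splicing regulators to pass (-0.35 ± 0.08 (SE), adjusted p = 0.0408), and Tra2a, another regulator, went the other way (0.34, adjusted p = 0.217).

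**Figure D5:**
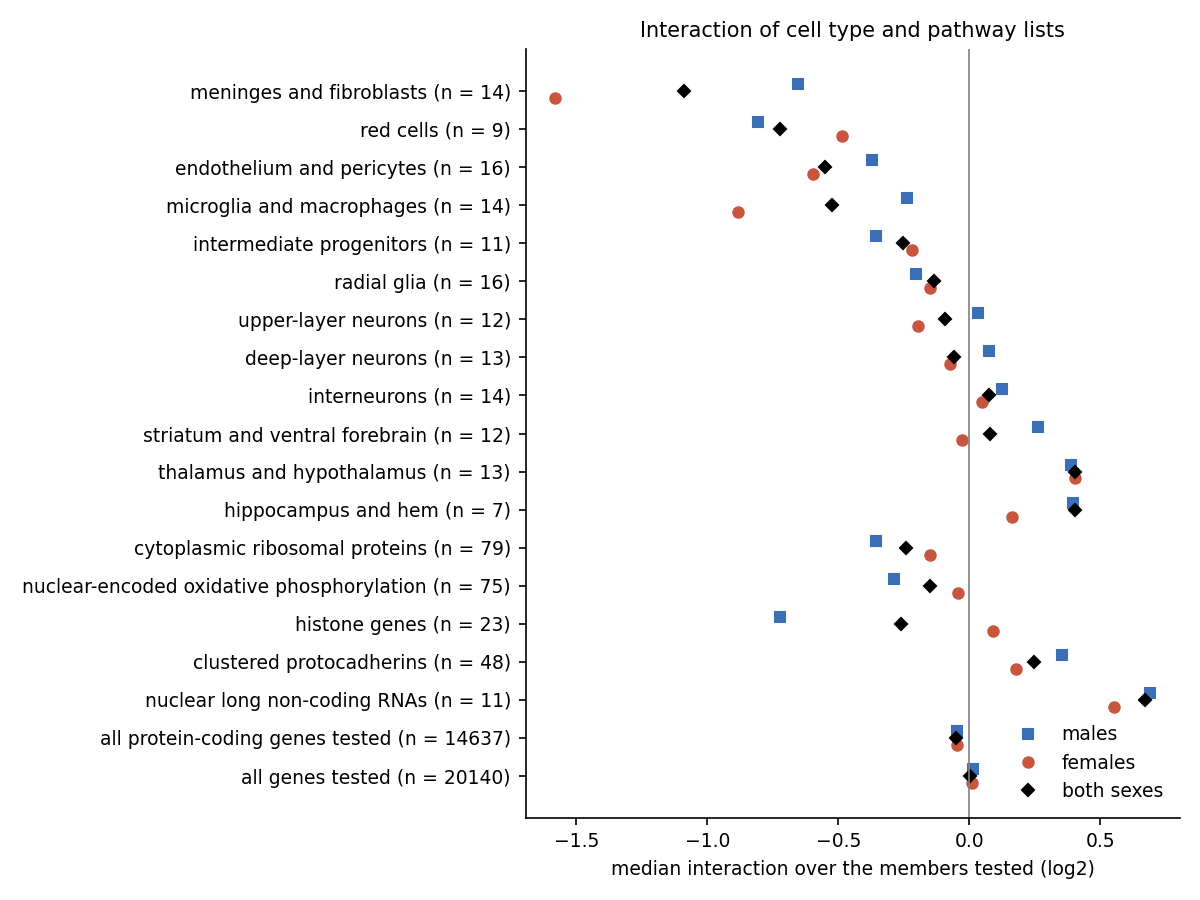
Median interaction (log2) over the tested members of cell type and pathway lists in males (squares), females (circles) and both sexes (diamonds), beside all protein-coding genes (-0.05) and all genes tested (0.00). Over both sexes, meninges, red cells, endothelium and macrophages lie lowest, and nuclear long non-coding RNAs highest of the lists plotted, at 0.67. In males alone, histone genes (-0.72) lie below meninges (-0.65).

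The cells that build the cortex showed small values. For comparison, 8885 of all 14637 protein-coding genes tested were below 0. Radial glia had a median interaction of -0.13 over 16 genes, 12 below 0 and 0 called, with 5 at an unadjusted p under 0.05. Lhx2, a cortical selector transcription factor, had -0.35 ± 0.09 (SE), adjusted p = 0.0571, Vim, an intermediate filament, -0.39 (adjusted p = 0.213) and Tnc, a matrix protein, -0.31 (adjusted p = 0.224). Intermediate progenitor genes were below 0 in 11 of 11 (median -0.25, 0 called, 2 at an unadjusted p under 0.05), with the neurogenic factors Neurod1 at -0.41 (adjusted p = 0.0678), Neurog2 at -0.54 (adjusted p = 0.280) and Eomes at -0.35 (adjusted p = 0.433). Upper-layer neurons had a median of -0.09 over 12 genes, deep-layer neurons -0.06 over 13, interneurons 0.08 over 14 and Cajal-Retzius cells 0.14 over 10, with 0 called in each by edgeR's quasi-likelihood test and 2, 1, 2 and 1 members at an unadjusted p under 0.05. The radial glia median was -0.059 without male maternal 1, -0.25 without female control 1 and -0.073 without female dual 2. The intermediate progenitor median was -0.13 without male control 2, -0.44 without male dual 2, -0.51 without female control 1 and -0.063 without female dual 2. The upper-layer and deep-layer medians were positive in males (0.03 and 0.08) and negative in females (-0.19 and -0.07). Of 29 alternatives, the median took the other sign in 2 for interneurons, 4 for Cajal-Retzius cells and 1 for intermediate progenitors. The last was 0.0055, with the TEC and sense-intronic share as a covariate.

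Genes of neighbouring brain regions were mostly above 0, with 1 called. Of all 14637 protein-coding genes tested, 5752 lay above 0 and 0.266% were called positive. Striatum and ventral forebrain genes had a median of 0.08 over 12 genes, 9 above 0 and 0 called by edgeR's quasi-likelihood test (1 at an unadjusted p under 0.05). That median was -0.03 in females and took the other sign in 2 of 29 alternatives. Prox1, a transcription factor of the dentate gyrus and of thalamic neurons, was called in both the hippocampus and hem and the thalamus and hypothalamus lists. It read 51.2 ± 9.64 CPM (SD, n = 4) in control, 37.7 ± 1.41 in paternal, 40.4 ± 2.6 in maternal and 42.5 ± 1.68 in dual libraries, so controls were highest, and its interaction was 0.52 ± 0.13 (SE), adjusted p = 0.0429. Zbtb20, a hippocampal transcription factor (0.41, adjusted p = 0.0684), and Wnt2b, a signal of the cortical hem (0.68, adjusted p = 0.258), did not pass, and 7 of 7 hippocampus and hem genes were above 0 (median 0.41). Sim1, a hypothalamic factor, had 0.78 (adjusted p = 0.246) and Irx1, a diencephalic factor counted at low levels, had 2.56 ± 1.01 (adjusted p = 0.182). The thalamic and hypothalamic median was 0.40 over 13 genes, 12 of them above 0. Choroid plexus genes had a median of 1.03 over 7 genes that became negative in 4 of 29 alternatives, and their leading secreted product Ttr had 4.35 ± 2.19, with -0.43 in males and 4.85 in females (adjusted p = 0.308). The dual females stood at 3.86 and 157 CPM, and the interaction was 0.051 without the second of them and 1.91 without male control 2. High levels of Ttr were not confined to dual libraries. Single-parent libraries ranged from 0.525 to 117.5 CPM and control libraries from 0.181 to 62.0 CPM.

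Pathways tied to ethanol were mostly below 0 with no member called. So were 8885 of all 14637 protein-coding genes tested below 0. Alcohol and aldehyde metabolism had a median of -0.16 over 10 genes, 0 called by edgeR's quasi-likelihood test and 3 with an unadjusted p under 0.05. Aldh3a2, a fatty aldehyde dehydrogenase, came nearest at -0.44 ± 0.11 (adjusted p = 0.0516), followed by Akr1a1 (-0.27, adjusted p = 0.199) and Aldh7a1 (-0.27, adjusted p = 0.213). Retinoic acid signalling had a median of -0.19 over 16 genes, 0 called and 3 at an unadjusted p under 0.05, among them the meningeal Aldh1a2 and the receptors Rxrb (-0.25) and Rxra (-0.37). Antioxidant response genes had a median of -0.14 over 20, with 0 called and 5 at an unadjusted p under 0.05, and Nfe2l2, which encodes their regulator NRF2, had -0.60 ± 0.20 (adjusted p = 0.120). The integrated stress and unfolded protein response lay below 0 in 20 of 20 (median -0.22, 0 called, 3 at an unadjusted p under 0.05). Its median stayed between -0.30 and -0.14 under all 29 alternatives. With the TEC and sense-intronic share as a covariate, the alcohol and aldehyde metabolism median was -0.11. Those of retinoic acid signalling and antioxidant response were then -0.014 and -0.028. Medians of signalling lists were -0.15 for Wnt and -0.15 for Notch, and Lrp5, a Wnt co-receptor also known from retinal vessels, was called at -0.59 ± 0.14 (SE), adjusted p = 0.0399. Across all 43 lists, 14 medians lay above 0.

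The interaction was fitted separately in each sex, in 1 model of 8 group means. In males edgeR's quasi-likelihood test called 1 gene positive (0.00497% of those tested) and 0 negative, with 2662 genes at an unadjusted p under 0.05, while DESeq2 called 135 and 20. The gene was Gm37928, a TEC gene with 1.45 ± 0.21 (SE, adjusted p = 0.0483) in males and 0.99 in females, named after its values were seen. In females it called 283 positive (1.41%) and 57 negative (0.283%), 1.69% in all. The difference between the sexes was tested itself and called 0 genes in each direction (0%), with 1224 at an unadjusted p under 0.05 and 0 by DESeq2. Without female control 1 it called 9 and 0 genes, and without female control 2 it called 94 and 15. Leaving out 1 female library moved the female counts to 562 and 600 without control 1 and 400 and 508 without control 2. They were 30 to 66 positive and 0 to 7 negative without any 1 of the other 6 females. Leaving out 1 library gave 0 to 66 positive and 0 to 8 negative calls in males, with 66 and 3 without male control 1. The female and male interactions share no library. Of the 283 genes called positive in females, 278 (98.2%) were positive in males, where their median was 1.26 against 2.05 in females. Of the 57 called negative, 47 (82.5%) were negative in males, with a median of -0.28 against -0.91. Over all genes tested, 62.8% of those positive and 60.6% of those negative in females had the same sign in males. Among TEC and sense-intronic genes positive in females this share was 88.8%.

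The genes with the smallest p for the sex difference did not pass. Samd12 read 0.47 in males and -0.45 in females for the interaction, Slitrk4, a synaptic adhesion protein, 0.58 and -0.45, and Elfn1, a synaptic organiser of interneurons, 0.91 and -0.39. In the other direction Khdrbs2, a neuronal RNA-binding protein, had -0.20 in males and 0.78 in females, Dpf3, a chromatin remodelling subunit, -0.30 and 0.85, and the histone gene Hist1h4b -2.12 and 1.61. The lowest adjusted p of the sex difference was 0.629 by edgeR's quasi-likelihood test. Histone genes as a list had a median of -0.72 in males and 0.09 in females, and genes of DNA replication and mitosis -0.51 and 0.09. With the TEC and sense-intronic share as a covariate both medians over the sexes were above 0 (0.25 and 0.10), against -0.26 and -0.19 without it. A difference between these medians was not tested.

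Composition of the libraries was compared over 23 single measures, each by the exact permutation test within sex described above, and 0 passed at an adjusted p under 0.05. Summed hippocampus and hem markers had an interaction of 0.34 (two-sided exact p = 0.00367, adjusted p = 0.0845), and summed meningeal markers -1.29 (exact p = 0.00816, adjusted p = 0.0939). Microglia and macrophage markers were at -0.74, endothelial and pericyte markers at -0.46 and red cell markers at -1.02, each with an adjusted p of 0.0958. Globin genes were at -1.05 and antisense genes at 0.48, each with an adjusted p of 0.0974. The summed markers of radial glia (-0.10), intermediate progenitors (-0.22), upper-layer neurons (-0.08), deep-layer neurons (-0.05) and interneurons (0.05) had adjusted p-values of 0.391 to 0.701. Within females alone, summed endothelial and pericyte markers were 412 to 618 CPM in control, 594.5 to 619 in paternal, 575 to 592 in maternal and 421.5 to 471 in dual libraries, and within males 572 to 641, 584 to 638, 615 to 647 and 515 to 543. Microglia and macrophage markers were at 66.4 to 91.4 CPM in control, 105 to 128 in paternal, 89.7 to 97.9 in maternal and 59.9 to 71.8 in dual females, and at 96.2 to 109.6, 110.4 to 137, 83.6 to 114 and 85.1 to 94.5 in males. For both lists the dual females lay below all single-parent females, and the control females spread widely. Whether these shares take part in the interaction of other genes was not tested.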

How the data were processed

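Total RNA from the cortex of 16 fetuses or pools (the labels do not say which) was made into libraries with a TruSeq Standard Total RNA kit, per the labels' protocols. The submitters' processing notes name Trimmomatic, STAR and featureCounts and the builds GRCm39 and mm39; their versions, the annotation release, strand and multi-mapping settings are not stated in the sources used here. The deposited values are raw counts of reads per Ensembl gene, 1 table per library, made by the authors and not normalized. Of 55359 gene IDs, 52083 took a symbol and class from GENCODE M21 (GRCm38); sequences are from RefSeq on GRCm38.p6.

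Groups came from the treatment and sex labels. Genes passing filterByExpr on the 4 exposures (minimum count 10, minimum total 15) were normalized by TMM, and edgeR 4.0.16 (R 4.3.3) fitted a model of sex, father, mother and their product, whose quasi-likelihood test took Benjamini-Hochberg adjustment over 20140 genes at 0.05. CPM, where printed, were computed here from the deposited counts. A fit of 8 group means gave each sex and their difference. Library measures were tested by exact permutation within sex over 4900 splits. The splits exchange libraries of all 4 exposures, so the test is exact only where neither parent's exposure alone has an effect. Total counts of 15336566 to 35218456 set the counting precision, and the replicates' spread exceeds counting noise.

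Named genes were the 12 highest and 12 lowest called values with a mean log2 CPM of at least 1, an established symbol and the same sign in both sexes, the 3 members of smallest p in each list, and 5 genes per direction for the sex difference; others are said to be chosen after their values were seen or belong to a list or locus described. The members and lists were chosen with earlier results of these data known. Replicate numbers did not pair libraries: of 12 same-numbered pairs, 1 had a correlation of deviations over 0.1 (range -0.168 to 0.207). Alternatives were DESeq2 1.42.0, its size factors, limma 3.58.1 voom weights, no filter, thinning, a covariate, protein-coding genes alone, a replicate block and libraries left out. The fit was tested on simulated data.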

Additional observations from a re-analysis of the deposited data

How the results depend on the processing

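Counts are given as higher and lower. The interaction gave 754 and 150 calls with 8 group means, 1 and 0 in males only and 1220 and 371 with no filter. It gave 166 and 28 after thinning to the smallest total, 1436 and 604 with voom weights and 842 and 195 with DESeq2. Without the 2 female control libraries there were 1901 and 1417. Calls were 0 and 0 with protein-coding genes alone, with the TEC and sense-intronic share as a covariate and without the 2 female dual libraries. By edgeR's quasi-likelihood test, these last 3 settings had 1802, 1196 and 1431 genes at an unadjusted p under 0.05. Called list members were 16 and 47, 0 and 0, 31 and 87, 5 and 6, 38 and 126 and, by DESeq2, 38 lower; they were 47 and 258 without the female controls and 0 and 0 in the last 3 settings. Males gave 391 and 213 with no filter, 135 and 20 with DESeq2, and 0 higher after thinning, with protein-coding genes alone and with the covariate. Females gave 776 and 425, 511 and 132, and 102 and 26 (thinned), 109 lower with voom weights and 0 and 0 with protein-coding genes alone or the covariate. The sex difference gave 78 and 52 with no filter.

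With the replicate number as a block, which is only a shared number, 175 and 31 genes were called (174 and 29 of them also called without it), with 6 and 7 list members and 0 higher in males.

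Leaving out 1 library gave 0 to 1197 and 0 to 666 calls, 0 to 35 and 0 to 140 list members, 0 to 66 and 0 to 8 in males, 30 to 562 and 0 to 600 in females, and 0 to 94 and 0 to 15 for the sex difference (9 and 0 without female control 1, 94 and 15 without female control 2). Library measures then ranged from 0.74 to 1.22 for TEC and sense-intronic shares, 0.36 to 0.60 for antisense shares and -1.35 to -0.85 for globins. Summed markers ranged from -0.87 to -0.63 for macrophages, -0.59 to -0.39 for endothelium and -1.28 to -0.84 for red cells. They ranged from -1.58 to -0.91 for meninges and 0.29 to 0.38 for hippocampus. Library measures crossed 0 for IDs without a symbol (-0.56 to 0.50), mitochondrial rRNA (-1.04 to 0.71), interneurons (-0.0081 to 0.090) and Cajal-Retzius cells (-0.15 to 0.0070). Those of striatum (-0.0093 to 0.13), choroid plexus (-0.26 to 1.60) and oligodendrocyte lineage (-0.10 to 0.079) also crossed 0.

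In males alone, IDs without a symbol (0.18), deep-layer (0.011), choroid plexus (-0.16) and oligodendrocyte (0.15) measures took the other sign, as did mitochondrial rRNA (0.077) and striatum (-0.056) in females. Of 131 genes, 8 changed sign: Ttr (-0.43 in males, -2.10 with the covariate, -1.27 without the dual females), Unc5d (0.14 in males, 0.019 without the dual females), Negr1 (-0.029 in females), Igf2r (0.076 with the covariate, 0.023 without the dual females) and, with the covariate, Hist1h4h (0.00079), Rxra (0.010), Rian (-0.086) and Malat1 (-0.23). Medians of 20 of 43 lists had 1 sign under all 29 alternatives, and 33 of 43 moved by more than the replicate SD under at least 1. The cause of these changes was not tested.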
